A study of Mus musculus with 6 samples.

Results

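The genes described here were the nuclear genes of the mitochondrial respiratory chain and ATP synthase, measured by RNA-seq in 6 B16-F10 tumours. Members were the protein-coding genes whose symbols name subunits of complex I (Ndufa, Ndufb, Ndufc, Ndufs and Ndufv), complex II (Sdh), complex III (Uqcr), complex IV (Cox4 to Cox8) or ATP synthase, complex V (Atp5). This rule found 84 members among 53801 listed genes: 37 in complex I, 4 in complex II, 8 in complex III, 18 in complex IV and 17 in complex V. A few symbols caught by the rule, among them Atp5s, Cox7a2l and Ndufa4l2, name relatives of subunits rather than core subunits. B16-F10 is a mouse melanoma cell line, and the tumours grew from cells injected under the skin of adult male wild-type C57BL/6 mice. In the SEVO group (n = 3 tumours) the cells had been held in a chamber with the volatile anaesthetic sevoflurane before injection, and in the CTRL group (n = 3) they had not been primed. The mice of both groups received no anaesthesia at implantation, and the sevoflurane therefore reached only cultured cells. A new stock of cells was thawed for each group, so that stock and priming cannot be told apart.

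The RNA came from small pieces of whole tumour, although monocytes are named as the cell type in the labels. All 7 melanocyte markers, which include the pigment enzymes Tyr, Tyrp1 and Dct, had reads in each tumour and together reached 592 to 1642 CPM (counts scaled to a common library size). The 9 macrophage and monocyte markers together reached 177 to 317 CPM, most of it from Csf1r, while C1qa, C1qb, Cd14 and Itgam had at most 4 reads in any tumour. Complexes I to IV pass electrons from nutrients to oxygen and, apart from complex II, pump protons across the inner mitochondrial membrane, and complex V uses the proton gradient to make ATP. Mitochondrial DNA encodes a handful of core subunits of complexes I, III, IV and V, while the nucleus encodes all other subunits and the whole of complex II. Melanomas can draw on both glycolysis and respiration.

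Few of the aligned reads were counted to genes, which limited what could be seen of the members. Uniquely aligned reads numbered 29284963 to 41894798 per tumour, and why so few were counted was not tested. Counting assigned 723431 to 1348676 reads per tumour to genes, which was 2.06 to 4.61% of the uniquely aligned reads. The members together held 1062, 979 and 1018 of these reads in CTRL tumours 1 to 3 and 780, 852 and 1160 in SEVO tumours 1 to 3, or 0.0787 to 0.135% of the counted reads. Members were thus thinly counted, with a median of 6 reads per member and tumour and a maximum of 123. At least 1 read in any tumour was found for 83 members, at least 10 reads in every tumour for 10 members, and no more than 3 reads in any tumour for 6 members. The filter on low counts passed 24 members, and the other 60 were not tested. The predicted genes Gm10800 and Gm10801 took 1.31 to 49.0% of the counted reads, and both extremes were CTRL tumours. For this reason levels are given as CPM after TMM scaling, which weights such genes less than the plain read total does.

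Per exon length, most members ranked above the median protein-coding gene. Their median level was at percentile 86.8 of 21967 protein-coding genes, with a range from 3.12 to 97.5. Median levels were 5.38 CPM per exon kb in complex I, 4.53 in complex II, 3.22 in complex III, 3.61 in complex IV and 5.19 in complex V. Among the highest levels was that of Cox6c of complex IV, with 32.2 CPM per exon kb. High levels were also found for Ndufb10 of the complex I membrane arm with 31.2, Atp5f1, the b subunit of the ATP synthase stalk, with 22.9 and Atp5b, the catalytic β subunit, with 20.4. Uqcr10 led complex III with 12.7 CPM per exon kb and Sdhb, the iron-sulphur subunit, led complex II with 7.62. These leading levels rested on few reads in the short genes, since Uqcr10 had 3, 7 and 6 reads in CTRL and 2, 4 and 17 in SEVO tumours. As a background, the olfactory and vomeronasal receptor genes were taken, which melanocytes are not known to use as a class. They held 1.30, 0.0756 and 0.589 reads per exon kb (not normalised) in CTRL tumours 1 to 3. In SEVO tumours 1 to 3 they held 0.184, 0.21 and 0.397. This background was highest in CTRL tumours 1 and 3 and was not subtracted from any level. In each tumour, 74 to 80 members lay above the receptor density. At least 1 read was found for 81, 74 and 79 members in CTRL and 74, 76 and 79 in SEVO tumours. Lying above this low density was thus nearly the same as having a read. The share of all protein-coding genes above it was not taken. Pooled, the members held 6.45, 5.95 and 6.19 reads per exon kb in CTRL and 4.74, 5.18 and 7.05 in SEVO tumours, against 11.4, 4.11 and 7.92 and then 5.00, 5.35 and 5.93 for all protein-coding genes, so their pooled density was lower than that of all protein-coding genes in 4 of the 6 tumours.

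**Figure D1:**
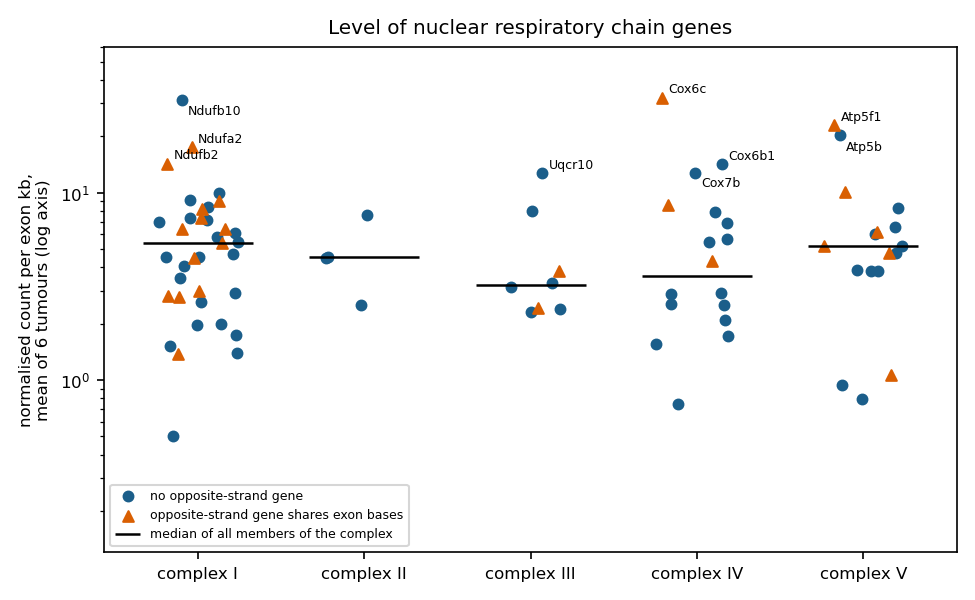
Mean normalised count per exon kb over the 6 tumours (log axis) for 82 nuclear respiratory chain genes with a read, by complex, with triangles for genes that share exon bases with a gene on the opposite strand. The medians of the complexes lie between 3.22 and 5.38, and the highest points are Cox6c and Ndufb10; Cox6a2, listed at 0 in all tumours, cannot be drawn on this axis.

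Many promoters of respiratory genes are known to bind NRF1, the ETS factor GABP and YY1, and short sequences that these factors recognise were looked up in the RefSeq promoters of the GRCm38.p6 assembly. The window ran from 250 bases before to 50 bases after each start, both strands were searched with each window counted once, and 66 of the 84 members were found in the table. GCATGCGC (NRF1) stood in 14.1% of 71 member windows and in 2.71% of all 32817 windows. AAGATGGC (YY1) stood in 12.7% and 2.74%, and CCGGAAGT (ETS) in 7.04% and 3.89%. At least 1 of these motifs was found in 23 of the 66 members (34.8%), against 9.91% of all genes. The following stretches, which hold no annotated exon, show the motifs in capitals in the promoters of members of 3 complexes, 5′ to 3′ on the strand of the gene, and a match is a description of letters, not evidence of binding in these tumours. They lie at chr15:82354351-82354390 (minus strand, Ndufa6), chr17:56717688-56717727 (plus strand, Ndufa11), chr10:80406864-80406903 (minus strand, Uqcr11) and chr9:44920959-44920992 (minus strand, Atp5l).
Ndufa6, NRF1: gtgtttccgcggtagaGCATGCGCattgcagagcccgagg
Ndufa11, NRF1: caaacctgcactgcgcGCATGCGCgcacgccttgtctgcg
Uqcr11, ETS: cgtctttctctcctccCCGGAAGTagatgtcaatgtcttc
Atp5l, NRF1: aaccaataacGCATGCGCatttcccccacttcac

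Asking whether priming left a trace in these genes, no tested member differed between SEVO and CTRL tumours at an adjusted p under 0.05. The adjusted p from edgeR ranged from 0.741 to 0.972 over the 24 tested members, 1 member had an unadjusted p under 0.05, and DESeq2 called 0 members as well. Among all 7561 tested genes 0% passed as well. At the thresholds of the study's methods, an unadjusted p under 0.02 and a change of at least 1.5-fold, 1 member passed, Sdha, where 1.04% of all tested genes did. DESeq2, the study's tool, passed 0 members at these thresholds (Sdha unadjusted p = 0.0841). Standard errors of the log2 fold changes ran from 0.31 to 0.83, so a change of 1.5-fold was within about 2 standard errors for every tested member. The p-values set the difference between the groups against the spread between the 3 tumours of a group, which edgeR estimates partly from other genes.

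The signs of the fold changes leaned to lower values in SEVO. The log2 fold change (SEVO against CTRL) was negative for 18 of the 24 tested members (75.0%), against 51.1% of all tested genes, and its median was -0.30 against -0.02. This lean was shared by other protein-coding genes, of which 66.0% of the 5231 tested were negative with a median of -0.33. Tested genes of other biotypes were negative in 17.7% of cases and had a median of 0.29. The members' share was hence near that of protein-coding genes as a class. With plain library sizes, the median of all tested genes was 0.22 and that of the tested members -0.03, so that the gap to other genes stayed similar while the members' own median came close to 0. Without the filter on low counts the gap turned, the 83 members with a read having a median of 0.02 and all genes one of -0.38. In bulk tissue, fewer cells of a type and less RNA per cell cannot be told apart.

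**Figure D2:**
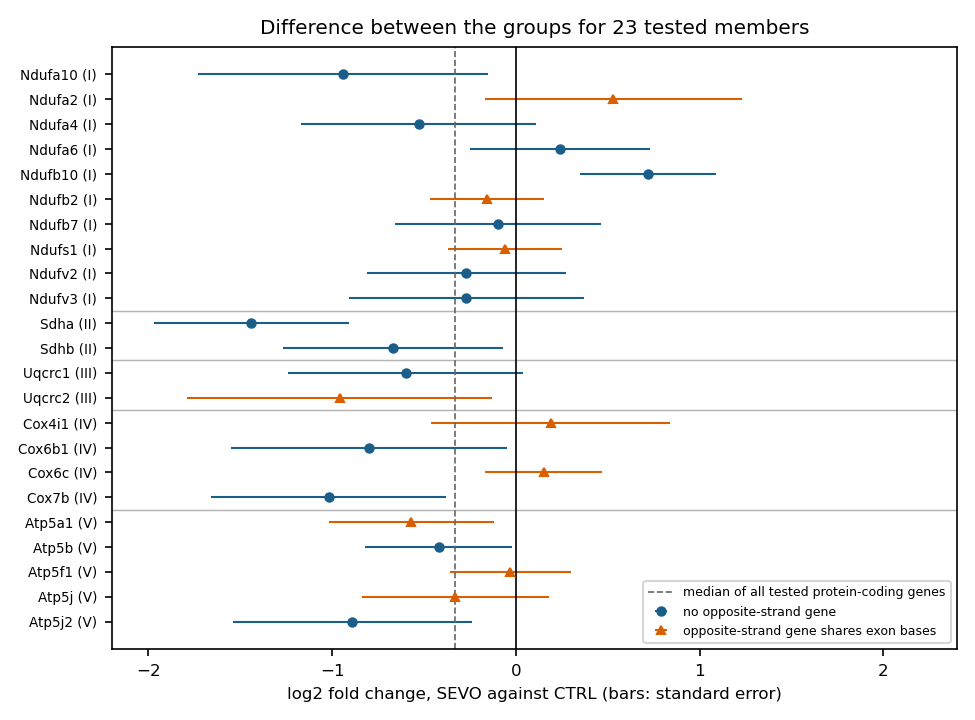
Log2 fold change (SEVO against CTRL) with its standard error for 23 of the 24 tested members, ordered by complex given in brackets. Sdha (-1.44) and Ndufb10 (0.72) are the ends of the range, and the dashed line is the median of all tested protein-coding genes (-0.33).

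Complex II, succinate dehydrogenase, links the citric acid cycle to the respiratory chain. It was the only 1 of the 5 complexes whose summed TMM-scaled level did not overlap between the groups. Of all tested single genes, 8.56% had normalised counts that did not overlap, and no such share was taken for sums. Complex II was also the only complex without a member that shares exon bases with an opposite-strand gene. All members without such a gene summed to a log2 ratio (SEVO against CTRL) of -0.46, and tested protein-coding genes without one had a median of -0.60. Whether complex II differed from that class was not tested. The 4 genes of complex II together had 55, 53 and 58 reads in CTRL tumours 1 to 3. In SEVO tumours 1 to 3 they had 15, 26 and 47 reads. Normalised, this was 66.8, 66.5 and 66.6 CPM in CTRL and 17.2, 27.9 and 51.3 CPM in SEVO tumours. The mean was 66.6 ± 0.153 CPM in CTRL and 32.1 ± 17.4 CPM in SEVO (SD, n = 3 each). With 53 to 58 reads per tumour, the CTRL spread is below counting noise and does not measure how alike the tumours were. The log2 ratio of the means was -1.05, from -1.56 to -0.75 with 1 tumour left out. With plain library sizes the ratio was -0.79 and the groups overlapped, at 47.6, 76.8 and 61.1 CPM in CTRL and 18.3, 30.7 and 58.2 CPM in SEVO tumours. The largest difference in CPM among the 4 genes was that of Sdha, the flavoprotein that oxidises succinate (ENSMUSG00000021577.14, chromosome 13, 74322254 to 74350280, GRCm38, minus strand). Sdha had 19, 21 and 28 reads in CTRL and 7, 6 and 14 reads in SEVO tumours, each SEVO value being below each CTRL value. Its level was 27.2 ± 4.59 CPM in CTRL and 9.92 ± 4.70 CPM in SEVO (SD, n = 3 each), with a fitted log2 fold change of -1.44 (SE 0.53, unadjusted p = 0.0182, adjusted p = 0.741, edgeR). The unadjusted p moved past 0.02 in DESeq2 (0.0841), with plain library sizes (0.0434), with scaling to uniquely aligned reads (0.0204), without a filter (0.084), with the replicate number as a block (0.0256), and without CTRL tumour 2 (0.0297), CTRL tumour 3 (0.0895), SEVO tumour 1 (0.0619) or SEVO tumour 2 (0.0947).

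The other members of complex II overlapped between the groups. Sdhb, which carries the iron-sulphur clusters, had 17, 22 and 13 reads in CTRL and 4, 14 and 18 in SEVO tumours, with a log2 fold change of -0.67 (SE 0.60). Sdhd, a membrane anchor with too few reads for the test, had 6, 5 and 7 reads in CTRL and 2, 3 and 6 in SEVO tumours. Sdhc, the other anchor, had 13, 5 and 10 reads in CTRL and 2, 3 and 9 in SEVO tumours. In each of the 4 genes the lowest read count belonged to SEVO tumour 1 or 2, and in all but Sdha the count of SEVO tumour 3 lay within the range of the CTRL tumours.

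Complex I, the entry point for electrons from NADH, held the member that was highest in SEVO relative to CTRL. Ndufb10 (ENSMUSG00000040048.14, chromosome 17, 24722060 to 24724478, minus strand) had 17, 22 and 33 reads in CTRL and 36, 49 and 44 reads in SEVO tumours, each SEVO value being above each CTRL value. Its level was 28.7 ± 8.67 CPM in CTRL and 47.3 ± 5.61 CPM in SEVO (SD, n = 3 each), with a fitted log2 fold change of 0.72 (SE 0.37, unadjusted p = 0.0743, adjusted p = 0.741, edgeR). Non-overlapping normalised counts were found for 3 of the 24 tested members, Ndufb10 above and Sdha and Cox7b below, and for 8.56% of all tested genes. Ndufs1, a core subunit on the electron path, was among the best counted members and showed no difference larger than the spread. It had 53, 46 and 52 reads in CTRL and 59, 50 and 49 in SEVO tumours, a log2 fold change of -0.06 (SE 0.31), and its sign turned under other settings. Ndufa6, whose promoter stretch is shown above, had 14, 14 and 13 reads in CTRL and 16, 21 and 16 in SEVO tumours, all SEVO counts being higher although the normalised counts overlapped (log2 fold change 0.24, SE 0.49). Of the 11 tested complex I members, 7 had a negative log2 fold change, with a median of -0.10, the lowest being Ndufa10 (-0.94, SE 0.79). Ndufc1, with too few reads for the test, had 8, 1 and 4 reads in CTRL tumours and 0 in each SEVO tumour. Summed over its 37 members, the level of complex I was 525 ± 15.7 CPM in CTRL and 471 ± 52.2 CPM in SEVO (SD, n = 3 each), and SEVO tumour 3, at 531, lay within the CTRL range of 513 to 543.

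Complex III, cytochrome bc1, passes electrons from ubiquinol to cytochrome c. The tested members were its large core proteins Uqcrc1 (log2 fold change -0.60, SE 0.64) and Uqcrc2. Uqcrc2 had 17, 9 and 6 reads in CTRL and 2, 2 and 14 in SEVO tumours, a log2 fold change of -0.96 (SE 0.83). Uqcrh, the hinge protein, was not tested and had 13, 10 and 10 reads in CTRL and 4, 2 and 12 in SEVO tumours. The low counts were again those of SEVO tumours 1 and 2. Summed over 8 members the level was 94.7, 52.7 and 48.2 CPM in CTRL and 23.0, 23.6 and 75.3 CPM in SEVO tumours, and the groups overlapped.

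Complex IV, cytochrome c oxidase, reduces oxygen, and several of its nuclear subunits come in pairs whose expression differs between tissues. The best counted was Cox6c, with 74, 110 and 86 reads in CTRL and 123, 109 and 96 in SEVO tumours (109 ± 25.6 and 121 ± 18.7 CPM, SD, n = 3 each), and the log2 fold change was 0.15 (SE 0.32). Cox7b (chromosome X, 106015700 to 106022450, plus strand) had 17, 17 and 18 reads in CTRL and 3, 7 and 18 reads in SEVO tumours, a log2 fold change of -1.02 (SE 0.64). Its normalised counts did not overlap (20.6 to 21.3 CPM in CTRL, 3.45 to 19.6 CPM in SEVO), whereas its reads did. Cox6b1 had 6, 13 and 13 reads in CTRL and 3, 3 and 14 in SEVO tumours, a log2 fold change of -0.80 (SE 0.75). In both genes SEVO tumours 1 and 2 were low and SEVO tumour 3 was like CTRL. The summed level of the 18 members was 206 ± 21.3 CPM in CTRL and 185 ± 15.6 CPM in SEVO (SD, n = 3 each), of which Cox6c alone made up the larger part.

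Among the isoform pairs of complex IV, the broadly expressed form usually had more reads than the tissue-restricted one. Read counts were too low to rank most pairs. Cox4i1 had 8, 12 and 11 reads in CTRL and 4, 13 and 22 in SEVO tumours, while Cox4i2, the lung and hypoxia-linked form, had 3, 3 and 1 and then 0, 1 and 2. Per exon kb this was 8.59 against 2.50 CPM. Cox7b2 had 2 reads in CTRL tumour 1 and 0 elsewhere, against 12.8 CPM per exon kb for Cox7b. Cox6b2, known from testis, had 2, 0 and 6 reads in CTRL and 2, 3 and 2 in SEVO tumours. Per exon kb Cox6b1 and Cox6b2 stood at 14.2 and 2.56 CPM. Cox6a1 had 2, 5 and 2 reads in CTRL and 0, 1 and 0 in SEVO tumours, and Cox6a2, the heart and muscle form, was at 0 in all 6 tumours. A single count of 0 allows an expected count of up to about 3, and counts of 0 in all 6 tumours together allow less. Cox7c, another small subunit, had 3, 1 and 3 reads in CTRL and 1, 1 and 0 in SEVO tumours. Cox7a2 had 9, 1 and 11 reads in CTRL and 2, 4 and 7 in SEVO tumours, and its muscle partner Cox7a1 had 2, 0 and 7 and then 2, 3 and 2, or 6.89 and 5.66 CPM per exon kb. In the Cox8 family the order by level put the muscle form first: Cox8b had 0, 1 and 8 reads in CTRL and 3, 2 and 1 in SEVO tumours, Cox8a had 6, 6 and 0 and then 1, 1 and 3, and Cox8c, known from testis, had 1, 0 and 2 and then 1, 0 and 1. Per exon kb they stood at 7.93, 5.47 and 2.09 CPM, and with so few reads the order of Cox8a and Cox8b was not resolved. The 9 skeletal muscle markers held 0.099 to 2.34 reads per exon kb, the lowest in CTRL tumour 2 and the highest in CTRL tumour 1, and the part of muscle tissue in the reads of muscle isoforms was not tested. Ndufa4 is now counted as a complex IV subunit, but the counts, medians and sums given here placed it in complex I by its symbol. Ndufa4 had 11, 14 and 12 reads in CTRL and 4, 7 and 17 in SEVO tumours (log2 fold change -0.53, SE 0.64). Its hypoxia-induced relative Ndufa4l2 had 7, 3 and 8 reads in CTRL and 11, 14 and 4 in SEVO tumours, and here SEVO tumours 1 and 2 were the high ones.

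Complex V makes ATP, and all 5 of its tested members had negative log2 fold changes after TMM scaling, with a median of -0.42, although Atp5f1 and Atp5j turned positive under other settings. Atp5b had 76, 74 and 98 reads in CTRL and 38, 48 and 116 in SEVO tumours (99.2 ± 11.5 and 73.9 ± 45.7 CPM, SD, n = 3 each), and the log2 fold change was -0.42 (SE 0.40, adjusted p = 0.767, edgeR). SEVO tumours 1 and 2 thus lay below the CTRL range and SEVO tumour 3 above it, and without SEVO tumour 3 the log2 fold change was -1.01 (unadjusted p = 0.0164, adjusted p = 0.344, edgeR). Its partner in the catalytic head, Atp5a1, had 31, 34 and 29 reads in CTRL and 17, 13 and 39 in SEVO tumours, a log2 fold change of -0.57 (SE 0.45). Atp5f1 of the stalk did not follow this order, with 70, 94 and 72 reads in CTRL, 68, 114 and 72 in SEVO tumours and a log2 fold change of -0.03 (SE 0.33). Atp5j, another stalk subunit, had 18, 14 and 13 reads in CTRL and 14, 13 and 12 in SEVO tumours, a log2 fold change of -0.33 (SE 0.51). Atp5j2, the f subunit of the membrane part, had 15, 10 and 16 reads in CTRL and 4, 5 and 15 in SEVO tumours, a log2 fold change of -0.89 (SE 0.65). The summed level of the 17 members was 401, 363 and 334 CPM in CTRL and 222, 259 and 407 CPM in SEVO tumours.

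**Figure D3:**
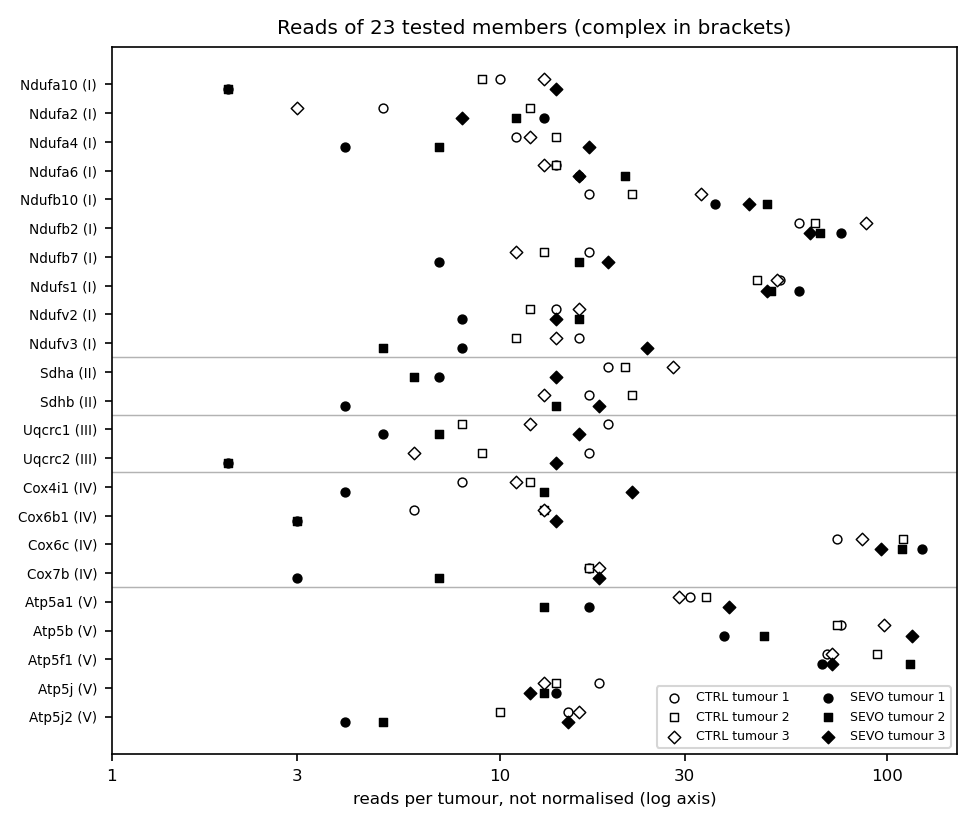
Raw reads per tumour (log axis) for 23 of the 24 tested members, open symbols for CTRL and filled symbols for SEVO tumours, with the symbol shape giving the tumour number. For Atp5b, Cox7b, Cox6b1 and Uqcrc2 the filled circle and square (SEVO 1 and 2) lie at the left and the filled diamond (SEVO 3) lies among or above the open symbols; Ndufs1 shows no such split.

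For 26 of the 84 members, at least 1 exon base was shared with an exon of an annotated gene on the opposite strand, in 30 pairs in all. The overlap lay at the start of the member in 18 pairs, at its end in 10, inside it in 1 and at both ends in 1. Whether the counting used strand is not given in the sources used here, and without strand the reads of such partners cannot be told apart. Only 2.06 to 4.61% of the uniquely aligned reads were counted. Of the 13 protein genes of mitochondrial DNA, 6 were at 0 in every tumour and 7 had reads, among them mt-Nd6 with 360 to 804. From which strand the counted reads came was not tested. Levels are therefore uncertain for all members, not only at shared bases. Bases where both genes have exons give ambiguous reads in unstranded counting, and 3838 to 6114 reads per tumour were tallied as ambiguous. The 5 members with at least 40 reads in every tumour all had an opposite-strand gene, and they held 38.0% of all member reads. Other well counted members had none. By reads over the 6 tumours, Cox6c (598 reads), Atp5f1 (490), Ndufb2 (418) and Ndufs1 (309) had an opposite-strand gene, and Atp5b (450) and Ndufb10 (201) had none.

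The difference between the groups was divided in the same way. Members with an opposite-strand gene summed to 616, 682 and 596 CPM in CTRL and 600, 574 and 602 CPM in SEVO tumours, a log2 ratio of means of -0.09. A large part of these sums came from the 5 members with at least 40 reads in every tumour. The 58 members without an opposite-strand gene summed to 674, 546 and 573 CPM in CTRL and 297, 340 and 663 CPM in SEVO tumours, a log2 ratio of -0.46. The lower values again belonged to SEVO tumours 1 and 2, and the size of the gap depended on which tumours entered. Without SEVO tumour 3 the log2 ratios were -0.10 with and -0.91 without an opposite-strand gene, and without SEVO tumour 1 they were -0.10 and -0.25. Of the tested members, 6 of 10 with an opposite-strand gene had a negative log2 fold change (median -0.04), and 12 of 14 without one did (85.7%, median -0.57). Over the members tested in each fit, these medians without SEVO tumour 1 were -0.11 and -0.22, and without SEVO tumour 3 they were 0.05 and -1.11. The same split held for protein-coding genes at large, so it was not particular to the respiratory chain. Of 2479 tested protein-coding genes with an opposite-strand gene 50.8% were negative (median -0.01), and of 2752 without one 79.6% were (median -0.60). With plain library sizes the medians of the tested members were 0.19 with and -0.27 without an opposite-strand gene, the direction of the former turning while the gap between them stayed similar, and without a filter on low counts they were 0.40 and -0.11.

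**Figure D4:**
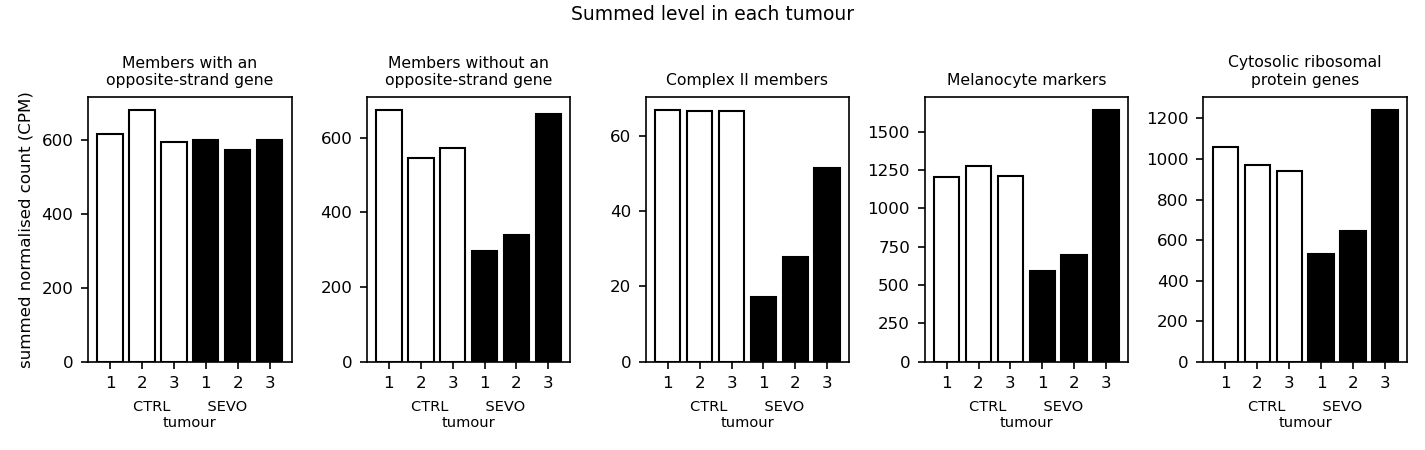
Summed normalised counts (CPM, each panel with its own axis from 0) in each of the 3 CTRL tumours (open bars) and 3 SEVO tumours (filled bars). SEVO tumours 1 and 2 are low for members without an opposite-strand gene (297 and 340), complex II (17.2 and 27.9), melanocyte markers (592 and 693) and cytosolic ribosomal protein genes (530 and 645), while members with an opposite-strand gene stay between 574 and 682 in all tumours.

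Some other gene groups moved across tumours with the members that had no opposite-strand gene, and others did not. As a background for their signs, 66.0% of tested protein-coding genes had negative log2 fold changes, with a median of -0.33. Of those without an opposite-strand gene 79.6% were negative, with a median of -0.60. The melanocyte markers summed to 1206, 1279 and 1212 CPM in CTRL and 592, 693 and 1642 CPM in SEVO tumours, and all 7 had negative log2 fold changes (median -0.38, none called). The 79 cytosolic ribosomal protein genes summed to 1059, 970 and 940 CPM in CTRL and 530, 645 and 1242 CPM in SEVO tumours, and 16 of their 20 tested genes had negative log2 fold changes (median -0.27, none called). Both groups were low in SEVO tumours 1 and 2 and highest in SEVO tumour 3. Members without an opposite-strand gene were likewise low in the former and near the CTRL range in the latter. The assembly factors of the complexes, which were not split by an opposite-strand gene, did not share this order. They summed to 846, 1029 and 935 CPM in CTRL and 987, 1011 and 865 CPM in SEVO tumours. A large part of that was Cox20 alone, with a mean of 351 CPM in CTRL and 416 CPM in SEVO. The protein genes of mitochondrial DNA did not share the order either, at 5636, 6250 and 4607 CPM in CTRL and 6154, 5032 and 4333 CPM in SEVO tumours. Among the 9 macrophage and monocyte markers most reads were those of Csf1r, with 88, 209 and 165 reads in CTRL and 257, 242 and 176 in SEVO tumours (log2 fold change 0.42, SE 0.39). The others had few reads and did not share its order, for example Mrc1 with 23, 2 and 5 and then 0, 2 and 5 reads, and Adgre1 with 9, 0 and 7 and then 1, 0 and 4. The part of melanoma cell content, macrophage content or RNA quality in the members' order was not tested.

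At 7 members the opposite-strand gene had a mean of at least 100 counted reads per tumour, far more than the member itself. The strand of the counted reads was not tested, so reads given to either partner cannot be assigned to it with certainty. Gm26631, a noncoding gene over the end of Cox5a (269 shared exon bases), had 401, 1384 and 585 reads in CTRL and 1117, 1175 and 986 in SEVO tumours, while Cox5a had 7, 9 and 7 and then 8, 8 and 8. Per exon kb the levels were 433 and 4.31 CPM, a ratio of 101. Pdzd9, over the end of Uqcrc2 with 504 shared bases, had 254, 1113 and 512 reads in CTRL and 1026, 949 and 822 in SEVO tumours, 108 times the level of Uqcrc2 per exon kb. Mrpl47, a mitochondrial ribosomal protein gene that starts head to head with Ndufb5 and shares 616 exon bases with it, the most of any pair, had 203, 564 and 293 reads in CTRL and 551, 619 and 327 in SEVO tumours. Ndufb5 itself had 14, 4 and 7 reads in CTRL and 1, 2 and 7 in SEVO tumours. Member and opposite gene did not follow each other there, since CTRL tumour 1 had the most reads of Ndufb5 and Uqcrc2 but the fewest of Mrpl47 and Pdzd9. The background density over the receptor genes was also highest in CTRL tumour 1 (1.30 reads per exon kb). Ino80dos, a noncoding gene over the end of Ndufs1 with 489 shared bases, stood at 38.8 times the level of Ndufs1, and Eef1b2, which shares 9 bases at the start of Ndufs1, at 2.54 times. The remaining pairs of this kind were 1700018A23Rik inside Ndufa9 (ratio 237), Smim27 with Ndufb6 (48.0) and Kbtbd4 with Ndufs3 (20.1). The 7 opposite-strand genes had log2 fold changes between 0.19 and 0.43, and none was called.

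Cox6c and Atp5f1 exceeded their opposite-strand genes, and Ndufb2 lay between its partners. Per exon kb, Vps13b stood at 0.160 times the level of Cox6c, and Wdr77 and Gm42890 at 0.0461 and 0.0135 times that of Atp5f1. Braf stood at 0.288 times the level of Ndufb2, but Gm16272, a noncoding gene over its start, at 4.23 times. Gabpa, which encodes the DNA-binding subunit of GABP and starts head to head with Atp5j (397 shared bases), stood at 1.68 times the level of Atp5j. In 14 of 29 pairs with a member read (48.3%) the opposite-strand gene was the higher per exon kb, and in 8 (27.6%) it was so by at least 10-fold. Over 5835 such pairs of all protein-coding genes these shares were 62.5% and 24.3%, so the members' pairs were near the general run.

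**Figure D5:**
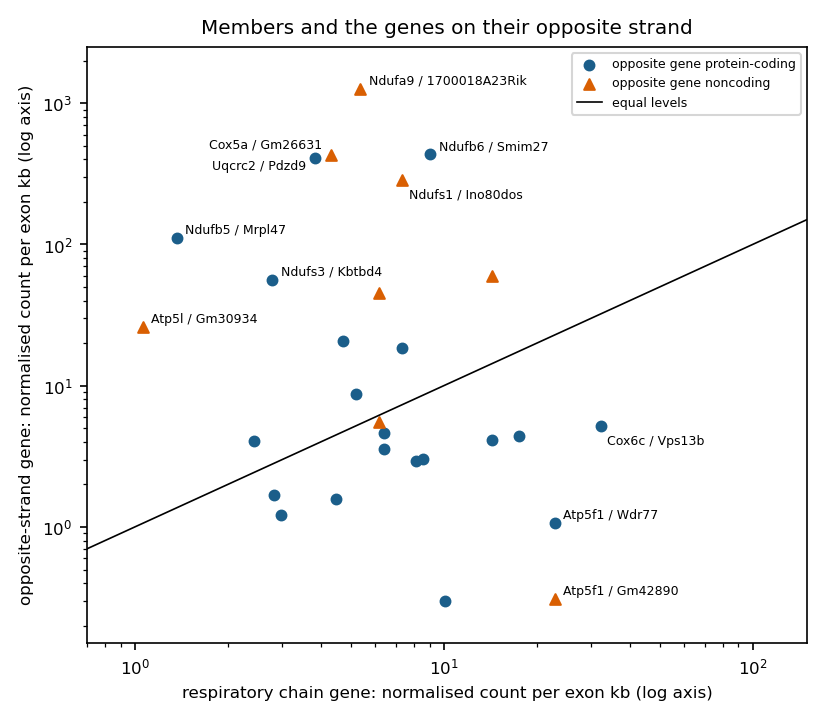
Level of each respiratory chain gene against the gene on its opposite strand, as normalised counts per exon kb over the 6 tumours (both axes log), for 28 of the 29 pairs whose member had a read. The points farthest above the line of equal levels are Ndufa9 with 1700018A23Rik (ratio 237), Uqcrc2 with Pdzd9 (108) and Cox5a with Gm26631 (101), while Cox6c and Atp5f1 lie below it.

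Genes around the respiratory chain gave no call. Assembly factors build the complexes without being part of them, and of the 47 found 11 were tested, 6 with positive and 5 with negative log2 fold changes, none called. The best counted of them was Cox20, a chaperone of the COX2 subunit of complex IV, with 351 ± 137 CPM in CTRL and 416 ± 96 CPM in SEVO (SD, n = 3 each). Coa6 had 13, 31 and 14 reads in CTRL and 35, 44 and 34 in SEVO tumours, a log2 fold change of 0.82 (SE 0.44), and Coa5 had 29, 10 and 21 and then 6, 13 and 13, a log2 fold change of -1.03 (SE 0.57). Among 15 regulators of mitochondrial genes, 8 were tested, where 66.0% of all tested protein-coding genes were negative (median -0.33). Of the 8 regulators, 7 had negative log2 fold changes (median -0.49, none called). These included Ppargc1a, the coactivator that drives mitochondrial biogenesis (-0.84, SE 0.62), Gabpb2 (-0.77, SE 0.43) and Yy1 (-0.59, SE 0.39), whereas Gabpa stood at 0.06 (SE 0.35). Nrf1, whose motif was the most frequent in the member promoters, had 49, 6 and 20 reads in CTRL and 7, 8 and 5 in SEVO tumours and did not pass the filter on low counts. Of 8 respiratory genes outside the rule 3 were tested, Ndufab1 (0.38, SE 0.36), Etfdh (-0.33, SE 0.33) and Cyc1, cytochrome c1 (-0.20, SE 0.52). The 13 protein genes of mitochondrial DNA, which encode the core subunits built together with these nuclear ones, included 7 tested genes with a median log2 fold change of -0.04 and 6 that were listed at 0 in every tumour. None of the 7 was called, and mt-Co1 had the lowest value (-0.62, SE 0.44).

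Copies of the members elsewhere in the genome had few reads. Of 12 noncoding genes whose symbols follow the naming rule, 11 are processed pseudogenes, of which 6 had a read and none had more than 9 in a tumour. The remaining 1, Ndufb1-ps, annotated as a noncoding transcript from a shared promoter, had 9, 39 and 30 reads in CTRL and 24, 30 and 26 in SEVO tumours. Only uniquely aligned reads were counted, and reads that fit a member and a copy equally well are therefore missing from both.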

How the data were processed

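RNA was taken from 6 tumours, 3 CTRL and 3 SEVO, grouped by their labels. The authors removed ribosomal RNA with SortMeRNA, trimmed with Trimmomatic 0.36, aligned with STAR 2.6.0c to GRCm38.p6 with the GENCODE M17 annotation, sorted with SAMtools 1.8.3 and counted uniquely aligned reads with HTSeq 0.9.1 (versions from the submitters' processing notes). The files deposited by the authors hold raw read counts of genes, not normalised, followed by 5 tally rows, which were left out of library sizes and tests. The strand setting is not given in the sources used here. Of 53801 identifiers, 53706 were matched to GENCODE M21 (GRCm38) for names, positions, biotypes and exon overlaps. Promoter stretches came from RefSeq (GRCm38.p6).

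All genes were fitted with the quasi-likelihood test of edgeR 4.0.16 in R 4.3.3 (TMM, filterByExpr with a minimum count of 10, group only), with Benjamini-Hochberg adjustment over the 7561 genes tested. Standard errors were derived from the F statistic. edgeR's common dispersion was 0.158 (biological coefficient of variation 0.398). CPM are counts over TMM-scaled library sizes, divided by the union of exon lengths where given per kb. DESeq2 1.42.0, the tool named in the study's methods, was run as an alternative with its Wald test. Other alternatives changed the scaling, the filter, the overlap that counts as shared, added the replicate number as a block or left out each tumour. The scripts were tested on simulated data. Members and lists were chosen with earlier results of these data known. Members named in full were the 2 with the highest level per exon kb in each complex, those with an unadjusted p under 0.05, the isoform pairs and the 4 with the most exon bases shared with an opposite-strand gene. The others named were chosen after their values were seen. The single values of 1 member are not reported here, while counts and sums include it. No set test was run.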

Additional observations from a re-analysis of the deposited data

How the results depend on the processing

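At an adjusted p under 0.05, 0 members were called in edgeR and in DESeq2 under every alternative, from 0 to 0 with 1 tumour left out. The count at the study's thresholds rested on Sdha: it was 1 in the fit reported, 0 with library size only, with at least 10 reads in every tumour, with the Wald test of DESeq2 and with scaling to uniquely aligned reads, and 0 to 2 with 1 tumour left out. It was 0 without CTRL tumour 2, CTRL tumour 3, SEVO tumour 1 or SEVO tumour 2, and 2 (Sdha and Atp5b) without SEVO tumour 3. Without a filter the count was 1, and the gene was Ndufc1. The median log2 fold change of the tested members ran from -0.46 with scaling to uniquely aligned reads, chosen after seeing the data, to 0.02 without a filter (83 members), and from -0.35 to -0.18 with 1 tumour left out. The summed level, a log2 ratio of -0.26, was -0.01 with library size only and ran from -0.44 to -0.17 with 1 tumour left out. The cause of these moves was not tested. Of the members, 26 shared exon bases with an opposite-strand gene, 16 shared at least 100, and 7 had an opposite-strand gene with a mean of at least 100 reads.

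Small differences changed sign. Atp5f1 stood at 0.18 with library size only, 0.40 without a filter and 0.25 in DESeq2, and Ndufs1 at 0.20, 0.45 and 0.29. Atp5j was 0.20 without a filter and 0.03 in DESeq2. With at least 10 reads in every tumour Cox6c was -0.03, and with scaling to uniquely aligned reads it was -0.01. With 1 tumour left out, Atp5f1 ran from -0.20 to 0.30, Ndufs1 from -0.11 to 0.10 and Cox4i1 from -0.37, without SEVO tumour 3, to 0.65. In sign, the values of Sdha, Ndufb10, Cox7b and Atp5b held in each alternative that could be fitted.

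With the replicate number as a block, 0 members were called at an adjusted p under 0.05, 0 passed the study's thresholds and the median was -0.41. Deviations of same-numbered tumours correlated at -0.40, 0.32 and 0.08, no source pairs them, and the block is only an alternative. With a median of 6 reads per member and tumour, changes of the size seen in single members were not resolvable for the 60 members not tested.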
